A study of Mus musculus with 10 samples.

Results

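Dlk1-positive spots are places on 10x Genomics Visium slides at which 2 or more transcripts of Dlk1 were captured. They were taken from the 4 adjacent sections of tumour NEJ146, called sections A to D after the letters of their titles, among spots with 8000 or more unique molecular identifiers (UMIs, each standing for 1 captured RNA molecule). Of the 17988 such spots, 1509 were positive, 2258 held 1 Dlk1 UMI and 14221 held 0 Dlk1 UMIs. These come from 19968 spots of NEJ146 and 49916 spots of all 10 sections of the series. Each spot is wide enough for cells of more than 1 type, so every value describes regions and not cell types. The members were chosen by their Dlk1 UMI counts, so its own levels are given as a description with no test, and all tests concern the other genes.

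Dlk1 encodes a transmembrane protein with epidermal growth factor-like repeats that resembles the ligands of the Notch receptors. It marks hepatoblasts, the bipotent progenitors of hepatocytes and bile duct cells in fetal liver, and is nearly silent in adult liver. The gene is imprinted and expressed from the paternal allele, while the long non-coding RNA Meg3 and the microRNA host gene Mirg of the same cluster on chromosome 12 are expressed from the maternal allele. Hepatoblastoma, a liver tumour of early childhood, resembles fetal liver, and Dlk1, Afp (alpha-fetoprotein), Gpc3 (a heparan sulphate proteoglycan of the cell surface) and Epcam (an epithelial adhesion molecule) are among its markers.

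The labels call the tissue of all 10 sections hepatoblastoma and the source of the NEJ146 libraries liver tissue. Of the tissues used here, the study's own text nevertheless names NEJ146, NEJ634, NEJ687 and NEJ723 as tumours and speaks of healthy mouse livers beside them, so NEJ638, NEJ654 and NEJ677 may be healthy livers under a hepatoblastoma label. The study modelled the tumour in ABC-Myc mice, in which Cre recombinase under the albumin promoter (Alb-Cre, active in hepatocytes and their progenitors) switches on a human MYC transgene driven by the CAG promoter (CAG-MYC). Both sides of every comparison below lie in the same NEJ146 sections and so share genotype, animal and library, and no untreated or normal tissue enters them. Age, sex and treatment of NEJ146 are not given in the labels, and the counts list mouse Myc with no entry for the human transgene. Because the 4 sections are neighbours in 1 tumour, their p-values concern sections of that tumour and not animals. The fit also pooled variance across genes, so p-values and SEs do not rest on a gene's own spread alone. The single sections of NEJ634, NEJ723, NEJ687, NEJ638, NEJ654 and NEJ677 were used to apply the same rule elsewhere and for the places of the spots. NEJ146 spots were placed by the positions of the same barcodes in those sections, and that NEJ146 was run on the same layout is an assumption on which all patches, areas, neighbours and distances rest.

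The gene that set the rule and the claudins that led the list of higher genes are shown by their promoters, 250 bases before to 50 bases after the start of transcription (RefSeq, GRCm38.p6), 5′ to 3′ on the strand of the gene. Capitals mark each GC box, searched as GGGCGG on both strands. Dlk1 lies at chr12:109452573-109452872 on the plus strand, Cldn4 at chr5:134946885-134947184 on the minus strand, Cldn6 at chr17:23679115-23679414 on the plus strand, and the first of the 2 listed starts of Cldn7 at chr11:69964529-69964828 on the plus strand.
Dlk1: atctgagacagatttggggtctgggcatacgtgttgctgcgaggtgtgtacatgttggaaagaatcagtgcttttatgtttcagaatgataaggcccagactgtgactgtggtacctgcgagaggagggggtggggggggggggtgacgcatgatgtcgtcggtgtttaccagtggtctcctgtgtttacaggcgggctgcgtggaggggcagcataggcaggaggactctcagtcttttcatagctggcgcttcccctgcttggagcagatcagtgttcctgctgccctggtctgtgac
Cldn4: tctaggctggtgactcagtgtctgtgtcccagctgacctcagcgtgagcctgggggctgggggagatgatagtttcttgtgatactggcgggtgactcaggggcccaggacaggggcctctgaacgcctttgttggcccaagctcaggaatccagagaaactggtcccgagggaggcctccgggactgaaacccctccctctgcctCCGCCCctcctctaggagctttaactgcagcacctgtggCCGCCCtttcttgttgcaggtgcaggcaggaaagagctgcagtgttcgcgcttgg
Cldn6: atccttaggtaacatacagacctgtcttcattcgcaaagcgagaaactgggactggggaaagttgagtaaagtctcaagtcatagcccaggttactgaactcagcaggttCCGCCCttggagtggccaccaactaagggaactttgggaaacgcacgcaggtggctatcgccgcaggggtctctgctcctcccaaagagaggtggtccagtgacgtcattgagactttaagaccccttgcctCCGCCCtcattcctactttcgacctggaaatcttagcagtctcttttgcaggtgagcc
Cldn7: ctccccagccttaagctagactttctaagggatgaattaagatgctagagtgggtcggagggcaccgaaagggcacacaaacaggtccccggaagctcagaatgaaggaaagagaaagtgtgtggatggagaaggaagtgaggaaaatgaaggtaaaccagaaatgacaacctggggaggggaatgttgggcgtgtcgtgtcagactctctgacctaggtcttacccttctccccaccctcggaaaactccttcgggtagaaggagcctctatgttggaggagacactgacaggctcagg
The Cldn4 and Cldn6 windows each held 2 GC boxes, and those of Dlk1 and of the first Cldn7 start held 0. The window of the second Cldn7 start, at chr11:69965171-69965470, held 1. Of 32851 promoter windows of this length, 35.7% held this motif. The E-box CACGTG, a sequence bound by MYC, was in none of these windows and in 7.15% of all.

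Positive spots made up 5.16, 15.7, 8.65 and 3.67% of the spots with 8000 or more UMIs in sections A, B, C and D, which is 230, 704, 422 and 153 spots and 1.99, 6.10, 3.65 and 1.33 mm2 at the 100 µm spacing of the array. They were most common in section B and least common in section D. Each section held 1 large connected patch of 96, 438, 212 and 65 positive spots (0.831, 3.79, 1.84 and 0.563 mm2), which reached the last row of the capture area in all 4 sections, so part of it may lie outside the area measured. The next largest patch had 16, 41, 23 and 18 spots, and 53, 92, 88 and 38 positive spots had no positive neighbour. Among the up to 6 neighbours of a positive spot, 47.0, 64.5, 56.8 and 46.6% were positive, against 2.22, 5.03, 3.24 and 1.5% among the neighbours of a 0-UMI spot.

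**Figure D1:**
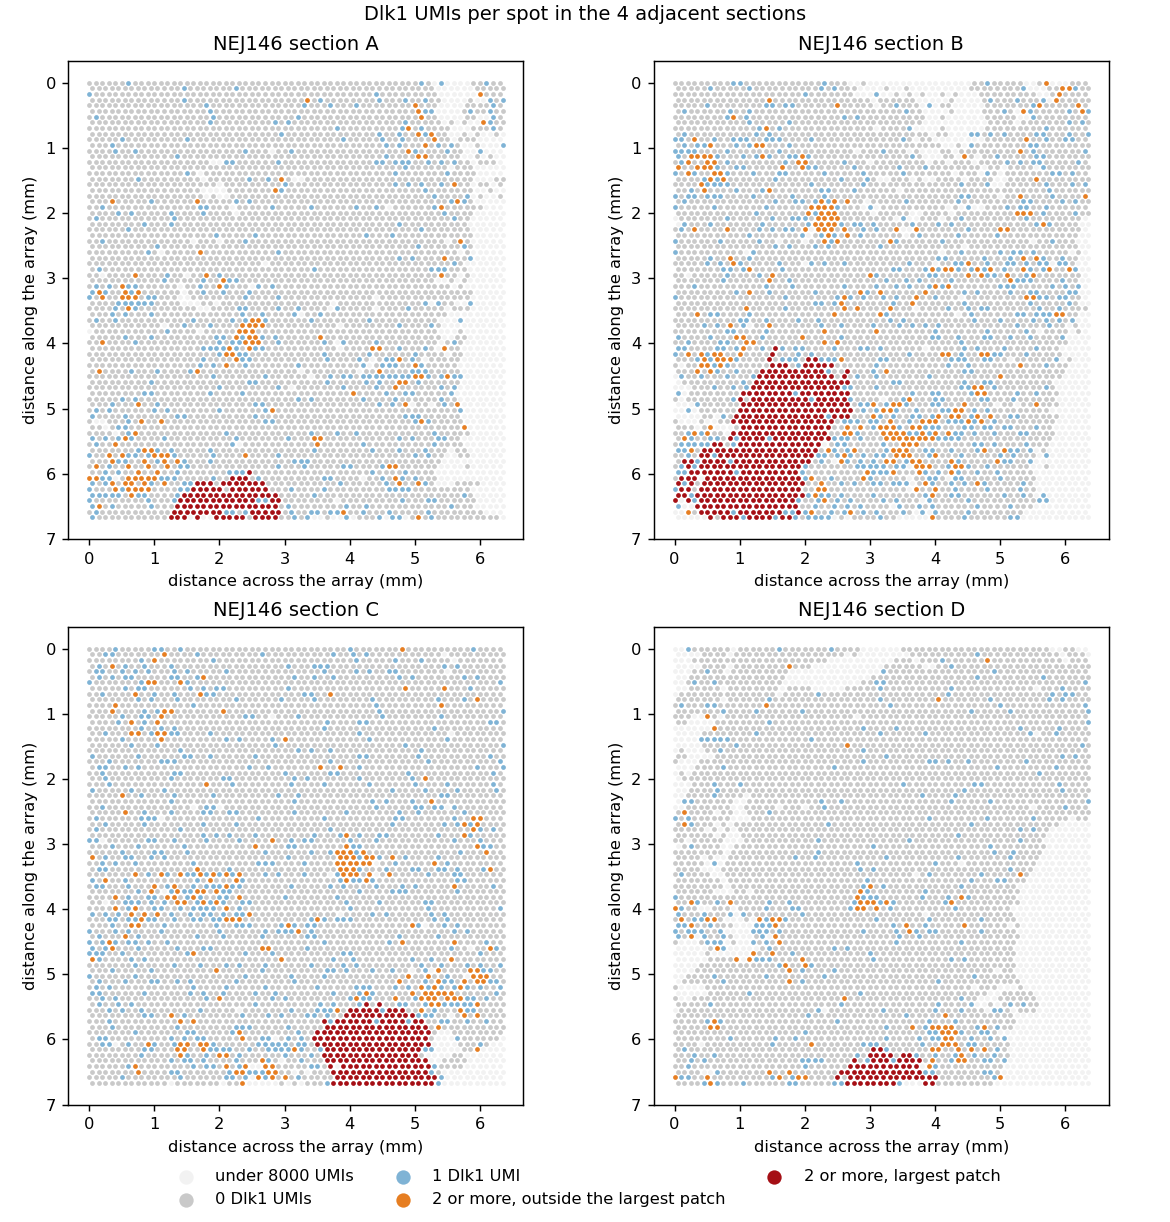
Each dot is a spot at its place on the array (axes in mm), coloured by its number of Dlk1 UMIs, for sections A to D of NEJ146. The largest patch lies at the lower edge in all 4 sections and holds 96, 438, 212 and 65 spots, while other positive spots form small groups or lie singly.

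Dlk1 stood at 333, 331, 325 and 256 CPM (UMIs of a gene per 1000000 UMIs of the same spots) in the largest patch of sections A to D and at 161, 134, 129 and 141 CPM in the other positive spots. Spots just inside the rule, with 2 Dlk1 UMIs, numbered 87, 206, 157 and 68, and spots just outside it, with 1 Dlk1 UMI, numbered 463, 741, 727 and 327. Median UMIs per spot were 17966, 20021, 27566 and 20640 in positive spots and 16744, 18952, 21727 and 19268 in 0-UMI spots, so the positive side was somewhat deeper in every section. The share of UMIs from mitochondrially encoded genes was lower in positive spots, 5.34, 5.65, 6.07 and 4.98% against 6.88, 7.07, 7.09 and 7.33%. Tissue was also called from the mitochondrial share around a spot, low over tissue, with a cut set on the other tissues. By it 92.6, 90.3, 85.1 and 98.0% of positive and 83.2, 72.7, 87.3 and 85.8% of 0-UMI spots lay over tissue. The 0-UMI side thus held more spots called off tissue in every section but C, and their part in the lower share was not tested. Hepatocyte markers were abundant on both sides: the summed level of 6 of them (Alb, Apoa1, Ttr, Serpina1a, Cps1, Hnf4a) ranged from 14881 to 21376 CPM in positive spots and from 17640 to 24895 CPM in 0-UMI spots. Total UMIs of the NEJ146 sections ranged from 86513213 to 117556249.

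Positive spots were compared with 0-UMI spots on counts summed per side and section, with the section as a block (edgeR's quasi-likelihood test, Benjamini-Hochberg adjusted p under 0.05). The claudin genes Cldn4, Cldn6 and Cldn7, Meg3 of the Dlk1 locus and most listed oncofetal genes were higher in positive spots, and the pericentral and periportal hepatocyte genes were lower. Of 14336 genes tested, 3310 rose (23.1%) and 3429 fell (23.9%), together 47.0%. Scaled by library size alone, the median of all genes moved up by 0.20 on the log2 scale and the counts became 6860 higher and 1646 lower, so changes are given relative to the median gene. Named genes are the 15 with the largest rise and the 15 with the largest fall among genes called, averaging at least 10 CPM and moving the same way in all 4 sections. Levels below are CPM after TMM scaling (trimmed mean of M values) within each comparison, so a gene's level differs a little from one comparison to the next. In sums over spots, fewer cells of a type and less RNA per cell cannot be told apart.

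Among the named genes, the claudins of tight junctions led those that were higher. Cldn6 stood at 38.7, 62.0, 56.2 and 26.4 CPM in the positive spots of sections A to D and at 2.44, 3.83, 2.67 and 1.24 CPM in their 0-UMI spots (log2 fold change 4.21 ± 0.08 (SE), adjusted p = 4.1e-30). Cldn7 stood at 82.4, 111, 134 and 85.5 CPM against 5.62, 7.77, 6.64 and 5.18 CPM (log2 fold change 4.07 ± 0.06 (SE), adjusted p = 2.1e-32). Cldn4 stood at 34.2, 49.4, 46.7 and 39.2 CPM against 2.44, 3.27, 2.14 and 2.70 CPM (log2 fold change 4.07 ± 0.09 (SE), adjusted p = 1.2e-28). For each of these claudins, the lowest positive section lay far above the highest 0-UMI section. The protease inhibitor A2m was next, at 54.7, 109, 92.4 and 39.2 CPM against 4.98, 7.55, 6.02 and 4.19 CPM (log2 fold change 3.75 ± 0.07 (SE), adjusted p = 4.1e-30), with its highest levels in sections B and C. Cxcl10, a chemokine induced by interferon, stood at 78.7, 109.8, 135 and 176 CPM against 13.6, 16.5, 14 and 16.5 CPM (log2 fold change 3.04 ± 0.08 (SE), adjusted p = 1.1e-26) and was highest in section D. Klhl13, a substrate adaptor of a ubiquitin ligase, rose by 3.25 ± 0.08 (SE), and Sprr1a, a precursor of the cornified envelope of squamous epithelia, by 3.29 ± 0.10, both on the log2 scale. The others of the 15 highest were Tubb2b (a beta-tubulin), Meg3, Col15a1 (a basement membrane collagen), the keratin gene Krt20, Epcam, Serpinb6b (a serine protease inhibitor), Plaur (the urokinase receptor) and Thy1, with log2 fold changes between 2.30 and 3.06. Every positive section lay above every 0-UMI section in 13.6% of the 7783 genes of at least 10 CPM and below every 0-UMI section in 26.8%, and since these 30 genes were picked as the extremes of this comparison, their own separation adds nothing to their choice. Of the 15 highest, 14 (all but Cxcl10) lay below 10 CPM in the 0-UMI spots of every section and so reached a mean of 10 CPM only through the positive side, on which they had to be high.

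**Figure D2:**
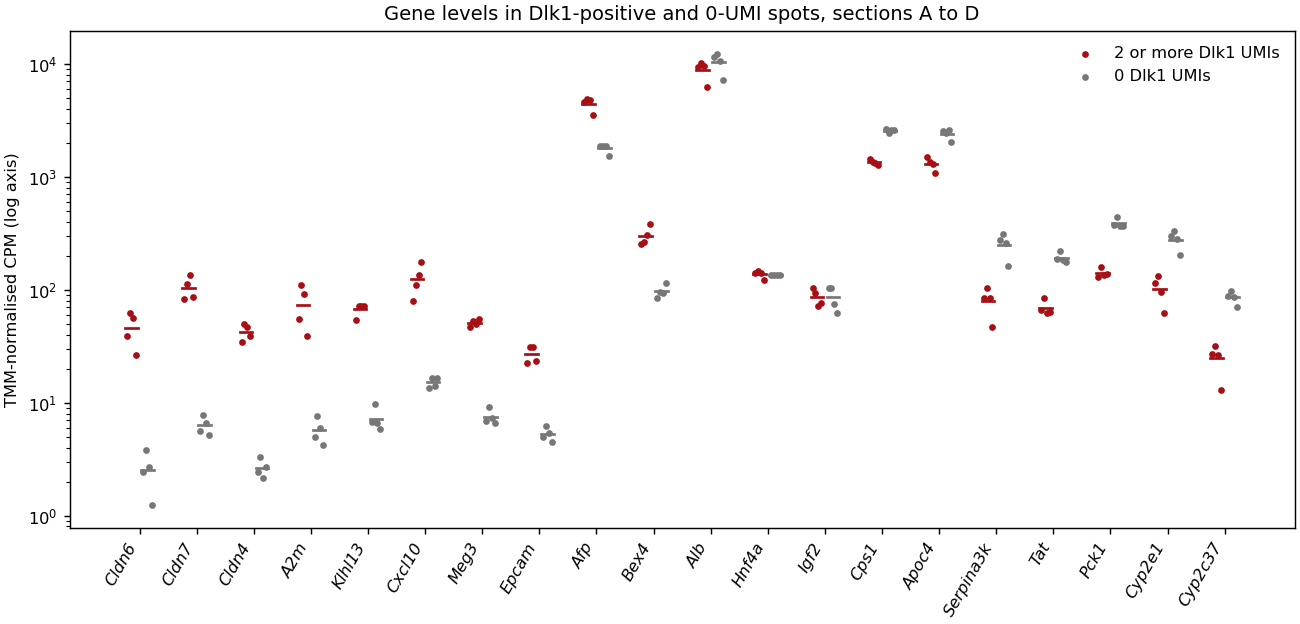
Points are the TMM-normalised CPM (log axis) of 20 genes in each of the 4 sections, in positive spots (red) and 0-UMI spots (grey), and each short line is the mean of 4. Groups do not overlap for the higher genes from Cldn6 to Bex4 nor for the lower genes from Cps1 to Cyp2c37, while they overlap for Alb, Hnf4a and Igf2.

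Meg3, Mirg and Rtl1 of the Dlk1-Meg3 locus were higher in positive spots. Of 7 further genes listed there, 4 could be tested, and 3 rose (23.1% of all genes did). Dio3 and Begain were too low and Rian is not listed under that name. Meg3 stood at 47.1, 52.9, 49.7 and 55.1 CPM in positive spots and 6.90, 9.09, 7.24 and 6.60 CPM in 0-UMI spots (log2 fold change 2.78 ± 0.07 (SE), adjusted p = 4.4e-27), with all 4 positive sections close together. Mirg had 188 UMIs in positive and 130 UMIs in 0-UMI spots over the 4 sections (log2 fold change 3.36 ± 0.20 (SE), adjusted p = 2.1e-16). Rtl1, a paternally expressed gene derived from a retrotransposon, had 29 and 24 UMIs (log2 fold change 2.94 ± 0.45 (SE), adjusted p = 1.1e-06). Wdr25 was the tested member that did not pass, at -0.55 on the log2 scale (adjusted p = 0.062).

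Of 19 hepatoblastoma and oncofetal genes, 17 were tested, and 12 rose and 2 fell (23.1% and 23.9% of all genes did). Their median log2 fold change was 1.34 where the median of all genes tested was 0.01. In the largest patch 12 rose and 3 fell (24.9% and 25.7% of all genes did), and in the other positive spots 7 of 16 tested rose and 1 fell (8.41% and 10.6% of all genes). Afp stood at 4567, 4938, 4810 and 3514 CPM in positive spots and 1887, 1877, 1890 and 1532 CPM in 0-UMI spots (log2 fold change 1.34 ± 0.03 (SE), adjusted p = 1.1e-26). Epcam stood at 22.3, 31.1, 30.8 and 23.3 CPM against 4.99, 6.27, 5.34 and 4.48 CPM (log2 fold change 2.39 ± 0.08 (SE), adjusted p = 2.1e-23), and Gpc3 rose by 2.17 ± 0.12 on the log2 scale. In each of these genes the sections did not overlap between the sides. In positive spots outside the largest patch, Gpc3 was at 0.28 ± 0.24 (adjusted p = 0.49) and Epcam at 0.07 ± 0.18 (adjusted p = 0.86) against 0-UMI spots. Neither passed there, whereas Afp did (0.98 ± 0.03). Igf2bp1, an RNA-binding protein of fetal tissues, had 154 UMIs in positive spots and 30 in the far more numerous 0-UMI spots (log2 fold change 5.15 ± 0.27). Lin28b, which blocks maturation of let-7 microRNAs, had 74 and 118 UMIs (log2 fold change 2.22 ± 0.26). Set directly against other positive spots, the largest patch was higher in Igf2bp1 (3.97 ± 0.39) and Lin28b (3.49 ± 0.56). Outside the patch Lin28b did not pass against 0-UMI spots, at -1.45 ± 0.95 (adjusted p = 0.33). Bex4 and Bex1, small genes of the X chromosome, rose by 1.66 ± 0.04 and 1.22 ± 0.03. The bile duct keratin Krt19 did not pass, at 4.32, 9.37, 7.25 and 5.97 CPM against 6.61, 8.87, 6.97 and 7.42 CPM (adjusted p = 0.85), and Glul (glutamine synthetase) and Ly6d (a surface protein anchored in the membrane by a lipid) had log2 fold changes of -0.38 ± 0.04 and -1.23 ± 0.06 and fell.

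The growth factor gene Igf2, imprinted at another locus and a hepatoblastoma marker, moved in opposite directions in the largest Dlk1 patch and elsewhere, and positive spots as a whole showed no call: it stood at 104, 93.6, 71.2 and 76.7 CPM in positive spots and 104, 104, 75 and 62.8 CPM in 0-UMI spots (log2 fold change 0.00 ± 0.05, adjusted p = 0.96). Set against 0-UMI spots, Igf2 was at -0.25 ± 0.06 in the largest patch (adjusted p = 9.7e-04) and at 0.31 ± 0.05 in the other positive spots (adjusted p = 2.3e-06), and the direct difference between these was -0.53 ± 0.07 (adjusted p = 8.3e-07). Of 14 imprinted growth genes at other loci, 6 rose and 2 fell (23.1% and 23.9% of all genes did), with a median log2 fold change of 0.05. Cdkn1c, an inhibitor of the cell cycle, stood at 82.4, 83.7, 89.6 and 88.9 CPM against 39.1, 38.2, 41.6 and 41.7 CPM (log2 fold change 1.13 ± 0.04 (SE), adjusted p = 8.8e-22), and the long non-coding RNA H19 changed by -0.29 ± 0.03. Of 13 genes of the insulin-like growth factor axis, 3 rose, near the 23.1% of all genes that did, and 6 fell (23.9% of all genes did). Among them were the binding proteins Igfbp2 (-0.96 ± 0.04) and Igfbp6 (0.95 ± 0.15).

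Of 14 duct and epithelial progenitor genes, 13 were tested, and 8 rose and 0 fell (23.1% and 23.9% of all genes did). Their median log2 fold change was 0.78. In the largest patch 8 rose and 0 fell (median 1.0; 24.9% of all genes rose there), and in the other positive spots 2 rose and 1 fell (median 0.05; 8.41% and 10.6% of all genes). Besides the claudins and Epcam, Krt7 rose by 1.96 ± 0.11 and Spp1 (osteopontin) by 0.78 ± 0.05, while Sox9, a transcription factor of duct cells, was at 0.02 (adjusted p = 0.93).

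Genes of hepatocyte metabolism were lower in positive spots. Among the 15 lowest named genes were 11 cytochrome P450 genes, the secreted protease inhibitor Serpina3k, and the enzymes Tat (tyrosine aminotransferase) and Pck1. Cyp2c37 stood at 27.0, 32.1, 26.5 and 13.1 CPM in positive spots and 88.2, 97.7, 86.5 and 70.6 CPM in 0-UMI spots (log2 fold change -1.70 ± 0.06 (SE), adjusted p = 2.2e-22). Serpina3k stood at 84.3, 105, 84.9 and 47.2 CPM against 276, 309, 258 and 163 CPM (log2 fold change -1.61 ± 0.04 (SE), adjusted p = 1.1e-26). Pck1, the enzyme that commits carbon to gluconeogenesis, stood at 129, 160.3, 136 and 138 CPM against 378, 440.1, 368 and 368 CPM (log2 fold change -1.44 ± 0.04 (SE), adjusted p = 1.7e-26). Every positive section lay below every 0-UMI section in these 3 genes, and section D had the lowest levels of the first 2 on both sides. All 11 pericentral and all 10 periportal genes fell (23.9% of all genes did), with median log2 fold changes of -1.13 and -0.88. Genes of both ends of the normal liver lobule were thus lower. Members of the Cyp2c and Cyp4a families are near copies of each other, and reads of one could have been counted for another. Of 22 mature hepatocyte genes, 1 rose and 20 fell (23.1% and 23.9% of all genes did). The falls were uneven: Alb (albumin) stood at 9333, 10262, 9515 and 6258 CPM against 11442, 12314, 10577 and 7197 CPM (log2 fold change -0.20 ± 0.03 (SE), adjusted p = 3.5e-06; 0.01 when scaled by library size alone), whereas Apoa1 rose by 0.19 ± 0.03.

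Of 15 hepatocyte transcription factors, 2 rose and 6 fell, with a median log2 fold change of -0.12. Beside each count in this paragraph, 23.1% of all genes rose and 23.9% fell. Hnf4a, which holds hepatocyte identity, stood at 141, 148, 139.7 and 123 CPM against 135, 136, 136 and 135 CPM (adjusted p = 0.19). Nr1i3 (CAR, the receptor that induces Cyp2b and Cyp2c genes) changed by -0.95 ± 0.06 and Onecut2 by -1.16 ± 0.13, while Foxa1 rose by 0.96 ± 0.13. Of 18 acute phase genes, 4 rose and 14 fell, with A2m and Lcn2 (1.22 ± 0.05) among those that rose. Of 13 mitochondrially encoded genes all 13 fell, with a median of -0.57, and the part of spots off tissue in this was not tested.

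Of 12 mitosis genes, 9 rose and 0 fell (median 0.21), led by Ube2c (1.0 ± 0.04) and Aurka (0.88 ± 0.05), while Mki67 was at 87.4, 80.5, 79.0 and 109 CPM against 85.2, 81.2, 85.1 and 95.1 CPM (adjusted p = 0.51). In the other positive spots Ube2c was at 0.20 ± 0.04 and Aurka at 0.22 ± 0.07. There 8 of the 12 rose and 0 fell (8.41% and 10.6% of all genes did), with a median of 0.20. Mki67, a marker of cycling cells, fell in the patch (-0.19 ± 0.06, adjusted p = 0.0093) and rose in the other positive spots (0.31 ± 0.05, adjusted p = 1.2e-06), with a direct difference of -0.47 ± 0.07 (adjusted p = 2.2e-06). Of 12 DNA replication genes, 6 rose and 0 fell (median 0.12). Beside the counts of this paragraph for positive spots as a whole, 23.1% of all genes rose and 23.9% fell. Of 14 Notch pathway genes, 5 rose and 0 fell (median 0.29), with the receptor Notch3 at 0.89 ± 0.12 and the ligand Jag1 at 0.84 ± 0.14, and the receptors Notch1 and Notch2 at -0.10 and -0.02 (not passing). In the largest patch 6 rose and 0 fell (24.9% and 25.7% of all genes did). In the other positive spots 2 rose and 0 fell (8.41% and 10.6% of all genes did), with Notch3 at 0.83 ± 0.16 and Jag1 at 0.08 ± 0.25 (adjusted p = 0.89). Of 13 Wnt target genes, 12 were tested, 0 rose and 8 fell (median -0.80), among them Notum (-1.19 ± 0.14) and Axin2 (-0.95 ± 0.23), both inhibitors of the pathway that it induces. In the largest patch against 0-UMI spots 10 of these 12 fell (median -1.05; 25.7% of all genes fell there), and in the other positive spots 1 fell (median -0.29; 10.6% of all genes). In the patch set directly against other positive spots only 5 could be tested and 4 were lower (20.8% of all genes were). Of 15 hypoxia response genes, 2 rose and 8 fell, and of 14 immediate early and stress genes 13 were tested, 8 rose and 3 fell, with Ier3 at 1.65 ± 0.08. Of the latter 13, 8 rose and 1 fell in the patch (24.9% and 25.7% of all genes did). In the other positive spots 0 rose and 2 fell (8.41% and 10.6% of all genes did), and Ier3 was at 0.14 ± 0.16 (adjusted p = 0.63).

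Markers of other cell types moved with the sides as well. Beside their counts, 23.1% of all genes rose and 23.9% fell in positive spots. In the largest patch these shares were 24.9% and 25.7%, and in the other positive spots 8.41% and 10.6%. Of 12 stellate cell and fibroblast genes, 8 rose and 0 fell, and their summed level was 874 to 1134 CPM against 559.6 to 723 CPM. Col1a1, a chain of type I collagen, stood at 126, 166, 150.5 and 96.9 CPM against 70.4, 68.2, 67.9 and 51.1 CPM (log2 fold change 1.11 ± 0.05 (SE), adjusted p = 4.5e-20). The hepatic stellate cell genes Reln, Lrat and Des of this list were at -0.04, -0.11 and 0.25 and did not pass. Of 10 neutrophil genes, 9 rose and 0 fell (466 to 588 CPM against 261 to 467 CPM), although in the patch 1 rose and 9 fell (median -1.32) and in the other positive spots 9 rose and 0 fell (median 1.57). With 3 or more Dlk1 UMIs as the rule, Camp and Ngp turned below 0. Of 10 erythroid genes 9 were tested, 1 rose and 6 fell (7281 to 10275 CPM against 10034 to 10873 CPM), of 10 macrophage and Kupffer cell genes 6 rose and 4 fell (1524 to 1740 CPM against 1264 to 1641 CPM), and of 8 T and NK cell genes 6 rose and 1 fell (18.5 to 22.5 CPM against 14.1 to 16.6 CPM). The macrophage genes that rose were Cd68, Adgre1, C1qa, C1qb, Csf1r and Lyz2, and those that fell, Clec4f, Vsig4, Cd5l and Marco, mark Kupffer cells, the resident macrophages of the liver. Without the largest patch, 8 of 10 macrophage genes rose and 0 fell in the other positive spots, where 8.41% of all genes rose and 10.6% fell. Marco was among those that rose (0.34 ± 0.05), against -1.81 ± 0.07 in the patch. All 9 tested erythroid genes rose in the other positive spots (median 0.41), while in the patch 0 rose and 8 fell (median -1.22), where 24.9% of all genes rose and 25.7% fell. Of the 8 T and NK cell genes 6 rose and 1 fell in the patch, and 0 passed in the other positive spots. Of 8 endothelial genes, 0 rose and 5 fell (163 to 209 CPM against 187 to 231 CPM), with 0 higher and 8 lower in the patch and 1 higher and 1 lower in the other positive spots. Of 5 megakaryocyte and platelet genes, 2 rose and 0 fell, with 0 higher and 4 lower in the patch (median -2.06) and 4 higher and 0 lower in the other positive spots (median 0.92). Of 6 duct cell genes 5 were tested, 3 rose and 0 fell (208 to 275 CPM against 106 to 155 CPM), and of 6 B cell genes 1 rose and 1 fell. Mesothelial genes did not pass in any of 4 tested, and 7 neuroendocrine genes summed to at most 0.568 CPM in positive spots and could not be tested. Of 2 tested adipocyte genes Cidec rose and Fabp4 fell, the 1 tested pancreatic gene (Cela1) fell, and of 2 tested skeletal muscle genes Acta1 (skeletal muscle alpha-actin) rose, with 386 UMIs in positive and 99 in 0-UMI spots (log2 fold change 4.72 ± 0.18), while the muscle creatine kinase Ckm was too low to test and Myh4 was at 0. The part of these cells in the changes of the other genes was not tested.

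The largest patch and the other positive spots differed from each other, a comparison chosen after the values had been seen. Set directly against the other positive spots of the same section, the patch had 2113 higher (18.9%) and 2326 lower (20.8%) of 11198 genes, together 39.6% (1408 and 1717 without section C). Cldn4 stood at 84.5, 79.9, 80.4 and 81.1 CPM in the patch of sections A to D and at 1.63, 3.95, 3.41 and 3.08 CPM in the other positive spots (log2 fold change 4.60 ± 0.14 (SE), adjusted p = 3.2e-18). Epcam stood at 47.7, 48.1, 51.0 and 47.0 CPM against 6.51, 6.58, 5.68 and 3.08 CPM (log2 fold change 3.03 ± 0.14 (SE), adjusted p = 4.4e-15). Meg3 differed less, at 73.5, 73.7, 70.2 and 84.2 CPM against 34.2, 26.5, 28.2 and 34.5 CPM (log2 fold change 1.31 ± 0.09 (SE), adjusted p = 4.9e-12). The 15 highest and 15 lowest genes were chosen on sums to which the patch gave 41.7, 62.2, 50.2 and 42.5% of the positive spots, so that all of them were more extreme in the patch is partly set by that choice. Dlk1 itself, which the rule used, was also higher in the patch.

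Without the largest patch and the spots within 2 steps of it, other positive spots still differed from 0-UMI spots, with 1179 higher (8.41%) and 1489 lower (10.6%) of 14020 genes, together 19%. Of the 15 highest genes 7 rose in this comparison and of the 15 lowest all 15 fell. Nearly all of these spots were in the sums on which those genes were chosen, so both counts are partly set by that choice. Cldn4, at 0.27 on the log2 scale (adjusted p = 0.52), Klhl13 at 0.33 (adjusted p = 0.098), Sprr1a at -0.35 (adjusted p = 0.45) and Epcam at 0.07 (adjusted p = 0.86) did not pass there. Meg3 (1.95 ± 0.11), Mirg (2.81 ± 0.34), Rtl1 (2.84 ± 0.75), Afp (0.98 ± 0.03), Bex4 (1.21 ± 0.05), Cdkn1c (1.26 ± 0.05), Cldn7 (1.46 ± 0.12) and A2m (1.43 ± 0.13) rose there too. Thus Meg3, Mirg, Rtl1 and Afp were higher in both kinds of positive spot, while Cldn4, Klhl13, Sprr1a and Epcam did not pass outside the patch and were directly higher in it. Krt7, Spp1, Sox4 and Foxa1, which rose in positive spots as a whole, were at -0.20, -0.06, -0.02 and -0.42 outside it, and Acta1 at 0.48 (adjusted p = 0.71). In the second largest patch of each section, Dlk1 stood at 367, 215, 295 and 121 CPM there, Cldn4 at 3.56, 2.81, 4.06 and 0 CPM and Meg3 at 10.7, 40.7, 28.5 and 60.7 CPM.

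Neutrophil and globin genes divided the positive spots the other way. Camp, a neutrophil granule gene, stood at 12.6, 24.5, 8.54 and 7.93 CPM in the patch and 99.2, 123, 163 and 89.2 CPM in other positive spots (log2 fold change -3.08 ± 0.17 (SE), adjusted p = 2.9e-13). S100a9, of neutrophils and monocytes, stood at 71.8, 81.4, 70.2 and 84.2 CPM against 470.1, 486, 444 and 495 CPM (log2 fold change -2.64 ± 0.06 (SE), adjusted p = 1.6e-20). The alpha-globin gene Hba-a1 stood at 876, 678, 918 and 960.3 CPM against 1965, 3123, 2617 and 3158 CPM (log2 fold change -1.68 ± 0.09 (SE), adjusted p = 1.9e-13). Levels of these genes were lower in the patch in every section. Of 14220 genes tested in the patch against 0-UMI spots, 3540 were higher (24.9%) and 3657 lower (25.7%), together 50.6%. In that comparison 1 neutrophil gene rose and 9 fell. In the other positive spots against 0-UMI spots 9 rose and 0 fell (8.41% and 10.6% of all genes did). Against other positive spots the patch was also lower in all 8 endothelial, all 9 tested erythroid and all 12 tested mitochondrially encoded genes. It was higher in 6 and lower in 1 of 12 fibroblast genes. Beside these counts, 18.9% of all genes were higher and 20.8% lower in the patch than in other positive spots. The mitochondrial share was 3.53, 4.8, 4.94 and 3.64% in the patch and 6.54, 7.04, 7.69 and 6.16% in the other positive spots. By the call of tissue, 100, 100, 90.6 and 100% of patch spots and 87.3, 74.4, 79.5 and 96.6% of the other positive spots lay over tissue. The part of blood cells and of spots off tissue in these differences was not tested.

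**Figure D3:**
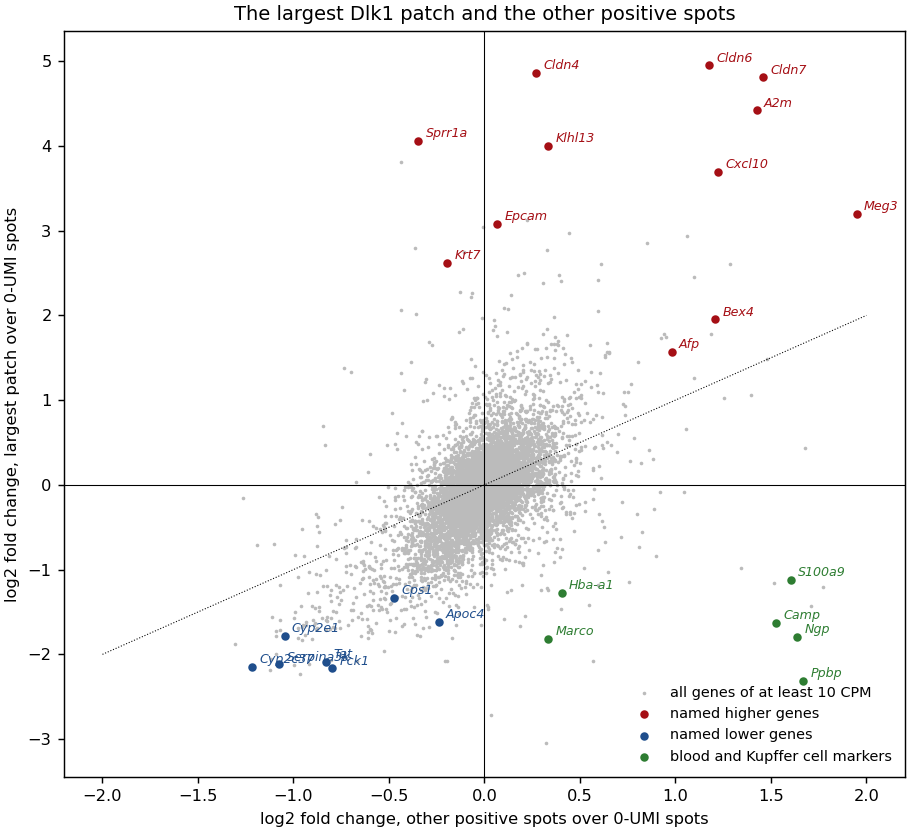
Each point is a gene of at least 10 CPM, by its log2 fold change over 0-UMI spots in other positive spots (horizontal axis) and in the largest patch (vertical axis), with the dotted line where both are equal; the 0-UMI spots are shared by both axes apart from those near the patch. Cldn4, Klhl13, Sprr1a and Epcam lie high near 0 on the horizontal axis, Meg3, Afp and Bex4 are high on both, and Camp, Ngp, S100a9 and Ppbp are high on the horizontal axis and below 0 on the vertical.

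By number of Dlk1 UMIs, levels of Cldn7 and Meg3 rose and those of Pck1 fell over the 4 classes, while Igf2, Mki67, Krt19 and Camp had no such order. Cldn7 averaged 6.25 ± 1.12, 11.6 ± 1.77, 22.1 ± 5.01 and 143 ± 28.0 CPM (SD, n = 4 sections) in spots with 0, 1, 2 and 3 or more Dlk1 UMIs. Meg3 averaged 7.40 ± 1.09, 14.4 ± 2.01, 27.3 ± 4.62 and 63.2 ± 6.96 CPM in the same order. Pck1 averaged 386 ± 33.9, 311 ± 33.6, 234 ± 54.2 and 99.7 ± 9.13 CPM. Camp averaged 41.5 ± 12.3, 62.9 ± 18.7, 91.3 ± 29.5 and 40.1 ± 5.77 CPM, highest at 2 UMIs. Meg3 at 1 UMI (13.4, 17.3, 12.9 and 14 CPM) lay above every section at 0 UMIs and below every section at 2 UMIs, and the step from 2 to 3 or more was the widest in CPM for Cldn7. These classes differ in how many of their spots lie in the large patch, and no test was made.

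Spots with 0 Dlk1 UMIs next to a positive spot differed from spots with 0 Dlk1 UMIs that had no spot with a Dlk1 UMI within 2 steps. There were 359, 637, 543 and 242 adjacent and 933, 211, 352 and 1269 far spots, and 1048 genes were higher (8.46%) and 885 lower (7.15%) of 12381, together 15.6%. The duct keratin Krt19 stood at 9.31, 9.36, 5.39 and 9.37 CPM in adjacent spots and 2.02, 3.98, 2.32 and 1.75 CPM in far spots (log2 fold change 1.93 ± 0.22 (SE), adjusted p = 9.4e-05). Krt19 did not pass in the positive spots themselves, but there the reference was all 0-UMI spots and not the far ones. Those results are therefore not comparable. Spp1 stood at 153, 147, 115 and 104 CPM against 53.9, 53.7, 67.0 and 45.5 CPM (log2 fold change 1.22 ± 0.09 (SE), adjusted p = 3.3e-06), and Camp at 84.1, 67.9, 60.5 and 108 CPM against 13.2, 17.2, 14 and 31.9 CPM (log2 fold change 2.13 ± 0.11 (SE), adjusted p = 1.2e-07). In each of these 3 genes, the adjacent spots of every section were above its far spots. Of the duct and epithelial progenitor genes, 12 could be tested here, 10 rose and 0 fell, and all 12 fibroblast and 9 of 9 tested neutrophil genes rose. Meg3 (1.75 ± 0.17), Cldn7 (1.78 ± 0.22) and Afp (0.49 ± 0.04) were higher next to positive spots too, although these spots had no Dlk1 UMI of their own, but next to the largest patch alone Afp was at -0.0097. Of the 15 highest named genes 12 rose, while 0 of the 15 lowest fell, with a median of 0.34. Among these Serpina3k (0.41 ± 0.12, adjusted p = 0.032) and Cyp4f14 (0.51 ± 0.13, adjusted p = 0.021) rose, Cyp2c37 was the one below 0, at -0.08 (adjusted p = 0.76), and Pck1 was at 0.12 (adjusted p = 0.52). The counts rested on section A: without it 315 genes were higher and 256 lower, and without section C 669 and 506. Section B had few far spots, with a median of 11582 UMIs against 20833 in its adjacent spots.

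With distance from the largest patch, levels of several genes dropped within 1 step of 100 µm. The distance classes held spots of 8000 or more UMIs with 0 or 1 Dlk1 UMI, and positive spots outside the patch were left out. The farthest spots of each section were left out too. Each drop therefore lies between positive spots and spots that the rule did not call positive. Cldn4 averaged 74.5 ± 1.92 CPM in the patch (SD, n = 4), 14.4 ± 5.70 CPM at 1 step and 3.42 ± 1.46 CPM at 2 steps. Afp averaged 5218 ± 832, 1829 ± 402 and 1418 ± 472 CPM in the same order and 1196 ± 252 CPM at 5 to 6 steps. Beyond 20 steps it averaged 1991 ± 262 CPM, which overlaps its level at 1 step within the SDs. Pck1 averaged 83.5 ± 13.4 CPM in the patch, 309.9 ± 33.1 CPM at 1 step, 669.9 ± 80.8 CPM at 7 to 10 steps and 267 ± 26.6 CPM beyond 20 steps. Epcam had a second, lower maximum away from the patch, from 2.13 ± 1.51 CPM at 4 steps to 12.6 ± 1.34 CPM at 7 to 10 steps and 3.84 ± 0.359 CPM beyond 20, and Cldn4 and Cldn7 were likewise higher at 7 to 10 steps than at 4, at 11 ± 2.22 and 20.9 ± 3.99 CPM. Dlk1 stood at 6.93 ± 2.15 CPM at 4 steps and 7.20 ± 2.18 CPM at 7 to 10 steps. Spots with 2 or more Dlk1 UMIs were left out of these classes, so a maximum of Dlk1 could not appear there.

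**Figure D4:**
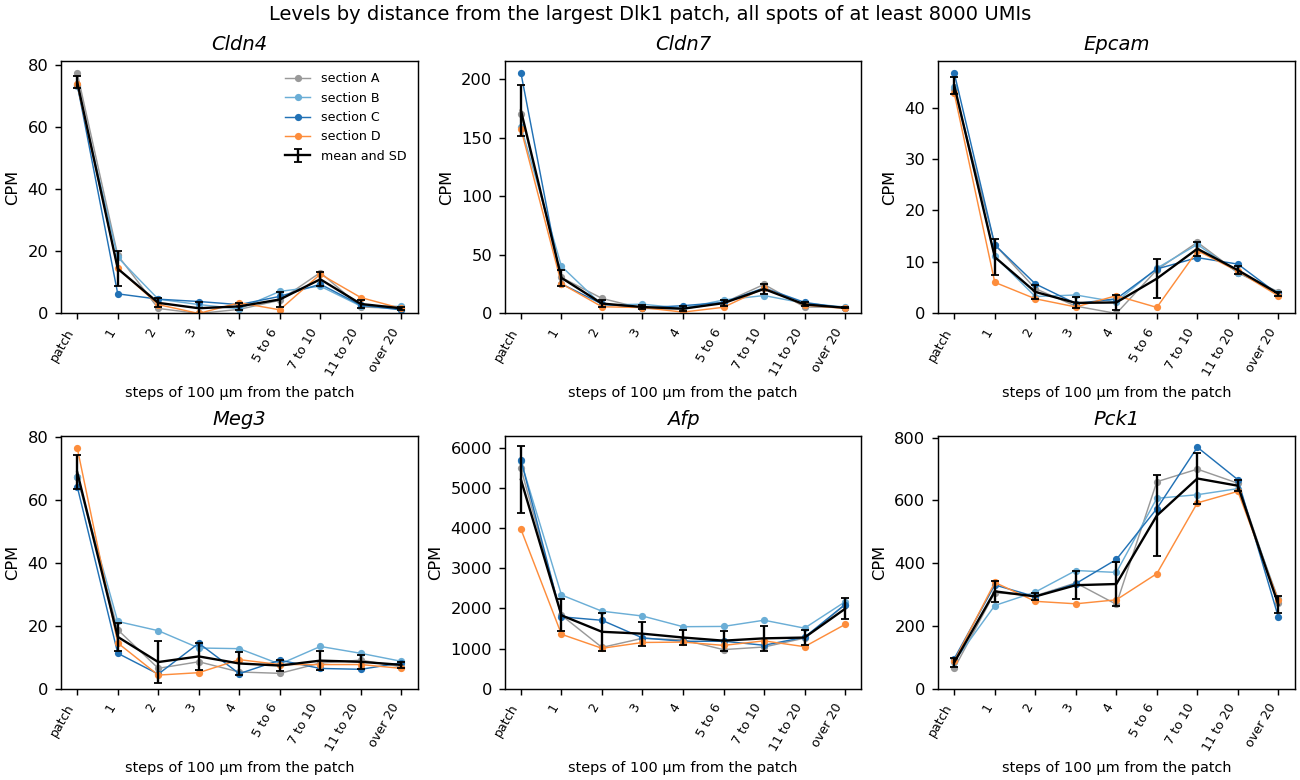
CPM of 6 genes (vertical axes from 0) in the largest patch and in classes of distance from it in steps of 100 µm, for each section (coloured lines) and as mean and SD of 4 sections (black). Despite the title, positive spots outside the patch and the farthest spots are left out. Cldn4, Cldn7, Epcam, Meg3 and Afp are highest in the patch and drop within 1 step, and Pck1 is lowest in the patch.

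Genes of the last part of chromosome 2 were higher together in the largest patch. This was found by looking along the chromosomes in bins of 10 Mb after the values had been seen, so it is a description. Of 223 bins with at least 10 genes of 10 CPM or more, 2 had a median log2 fold change above 0.5 in the patch over 0-UMI spots, and both lay on chromosome 2, while the other medians ranged from -0.35 to 0.41. Between the first and last genes of the stretch, chr2:160363703-174473081 (GRCm38, gene models of GENCODE M21), 67 of 74 genes rose in the patch and 3 fell, with a median of 0.72 and quartiles of 0.44 and 1.15, beside 24.9% of all genes that rose there. In the other positive spots 11 of these genes rose and 10 fell, with a median of 0.02, beside 8.41% and 10.6% of all genes. Set directly against other positive spots, 65 of 74 were higher in the patch and 2 lower, beside 18.9% and 20.8% of all genes. The 83 genes of the 15 Mb before had a median of 0.01 in the patch and the 26 genes after had a median of 0.00. In positive spots as a whole the median over the stretch was 0.29, 0.51, 0.45 and 0.38 in sections A to D. The bounds were set on these values and are only as sharp as the genes measured.

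Within the stretch the size of the change varied. Slpi (secretory leukocyte peptidase inhibitor) had the largest, at 2.80 ± 0.08 on the log2 scale, followed by Zfp64 (1.81 ± 0.08) and Pard6b, a cell polarity gene (1.66 ± 0.09). The mitosis genes Ube2c (1.41 ± 0.05) and Aurka (1.25 ± 0.06), the largest changes in their list, and the imprinted gene Gnas (0.94 ± 0.05) also lie in it. Pck1, at -2.17 ± 0.07, Zhx3, at -0.65 ± 0.09, and Sgk2, at -0.55 ± 0.07, were the 3 that fell. In NEJ634, NEJ723 and NEJ687 the median log2 ratio of positive to 0-UMI spots over the stretch was 0.00, 0.01 and 0.01.

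**Figure D5:**
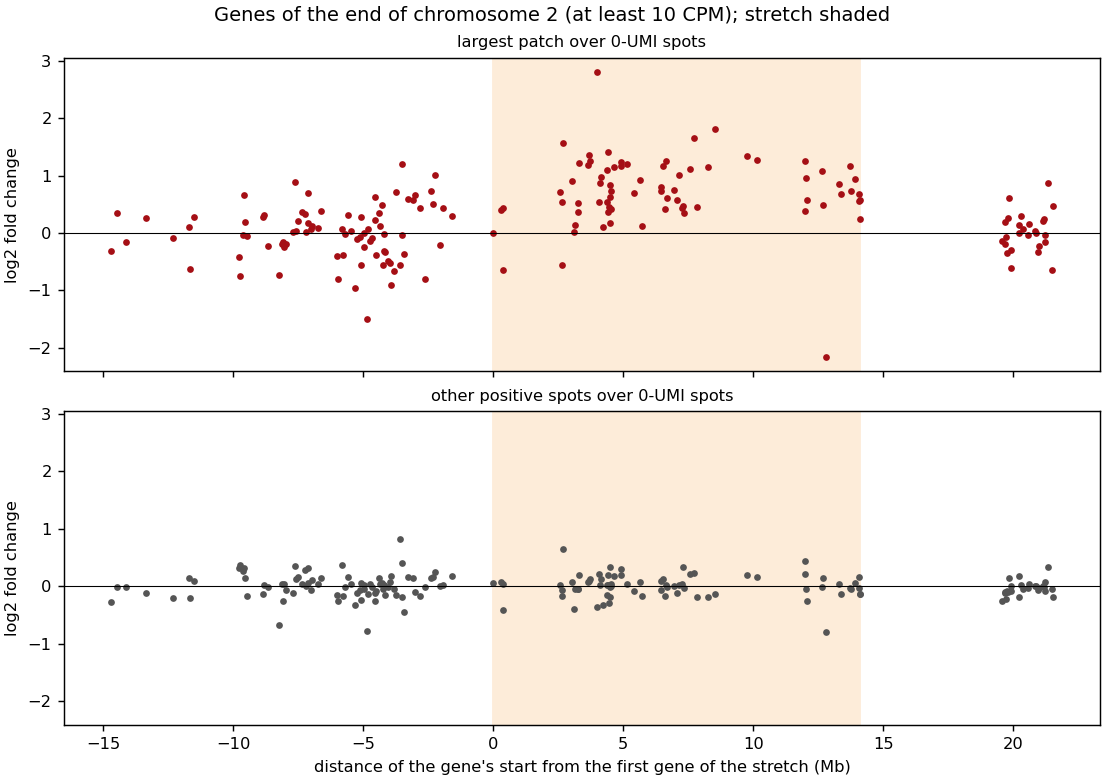
Log2 fold change over 0-UMI spots of genes of the end of chromosome 2 with at least 10 CPM, in the largest patch (upper) and in other positive spots (lower), against the distance in Mb from the first gene of the stretch, which is shaded. In the patch nearly all points of the stretch lie above 0, with a median of 0.72, while in the other positive spots they lie around 0.02.

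The genes whose levels followed Dlk1 most closely from spot to spot were taken by the mean over sections of Pearson's r, on log(1 + UMIs per 10000), over 17988 spots and 7783 genes. They were Cldn7 (mean r 0.551), A2m (0.484), Cldn6 (0.473), Klhl13 (0.445), Cldn4 (0.437), Cxcl10 (0.428), Bex4 (0.401), Tmsb10 (0.396), Meg3 (0.389) and Afp (0.373). For Cldn7, r was 0.481, 0.663, 0.639 and 0.421 in sections A to D, lowest in section D, where the patch was smallest. Igf2 had a mean r of 0.053. Spots of a section share a library and neighbouring tissue and are not independent, so no p is given. The correlation used the spots and Dlk1 counts that set the rule, so genes found by both are no separate support. The spots of the largest patch were included. Outside it, Cldn4 (0.27, adjusted p = 0.52) and Klhl13 (0.33, adjusted p = 0.098) did not pass in positive against 0-UMI spots.

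The same rule was applied to the other tissues, each with 1 section and so without a test. NEJ634 had 1902 positive and 951 0-UMI spots, NEJ723 had 1612 and 744, and NEJ687 had 514 and 2177. Of these, 1248 and 274 spots of NEJ634, 1084 and 424 of NEJ723 and 496 and 2025 of NEJ687 were marked as over tissue in the deposited position files, so most 0-UMI spots of NEJ634 were not. The ratios below are over all spots. Over tissue spots 15, 14 and 11 of the highest and 15, 10 and 13 of the lowest genes kept the sign of NEJ146, with medians of 0.99, 0.26 and 0.34 and of -1.56, -0.21 and -0.20. NEJ638, NEJ654 and NEJ677, which the study does not name as tumours, had 0 positive spots of 3959, 3640 and 3512, which allows shares of up to 0.0758%, 0.0824% and 0.0854%. Of the 15 highest genes of NEJ146, 14, 14 and 11 had a log2 ratio above 0 in NEJ634, NEJ723 and NEJ687, where 49.1%, 51.7% and 47.2% of all genes of at least 10 CPM did, with medians of 1.10, 0.20 and 0.33 against 3.04 in NEJ146. Of the 15 lowest, 15, 10 and 14 had a ratio below 0, where 50.9%, 48.3% and 52.8% of all genes did, with medians of -1.62, -0.16 and -0.24 against -1.57. The ratios of NEJ634 were thus the nearest in size for the lowest genes. Meg3 had log2 ratios of 1.01, 0.38 and 0.82 in these tissues, and Epcam 1.49, 0.48 and -0.21.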

How the data were processed

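The deposited values are raw UMI counts per gene and spot, whole numbers that the authors made from Visium libraries of frozen sections with 10x Genomics software. The submitters' processing notes name Cell Ranger 6.0 for NEJ146 and Space Ranger 1.3 for the other tissues, while the study's methods name Space Ranger for all. The genome build of the NEJ146 counts is not given in the sources used here, and gene positions come from GENCODE M21 (GRCm38), where 31011 of 31053 gene IDs were found. No positions were used here for NEJ146 itself: spots were placed by the positions of the same barcodes in the other sections, on the assumption that all were run on the same array layout, which no source used here states for NEJ146. Spots were not filtered on tissue, and no doublet caller was run.

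Counts were summed over the positive and the 0-UMI spots of each section, which gave 8 sums, and were fitted with edgeR 4.0.16 (R 4.3.3; TMM, filterByExpr, quasi-likelihood test, model of section and side, Benjamini-Hochberg adjusted p under 0.05). Dlk1 was left out. All counts, positions and correlations were computed with Python 3.11.15. Alternatives used DESeq2 1.42.0 and limma 3.58.1. Sections are adjacent and were treated as replicates. The test pooled variance across genes, with 30.5 prior against 3 residual degrees of freedom. SEs and p-values therefore rest mostly on the pooled variance and can be narrower than a gene's own spread. The log2 ratio of A2m had an SD of 0.36 over the 4 sections, beside an SE of 0.07 for its log2 fold change. Their 0-UMI sums differed by more than sampling noise (chi-square per degree of freedom of 13.1 to 88.3 between pairs), and both sums of a section deviated together from the group means (r of 0.44, 0.496, 0.336 and 0.633 for sections A to D), so the section was kept as a block. Tested on simulated data with 14173 genes, the fit for positive against 0-UMI spots recovered 99% of genes changed by 0.5 on the log2 scale and 100% of those changed by 1, with 10 false calls. Only genes of at least 10 CPM were changed, 100 by each amount, up and down alike, at the same dispersion for every gene. The simulation therefore does not cover rarer genes or a shift of many genes at once.

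The members, gene lists and tests were chosen with earlier results of these data known. The comparison of the largest patch with other positive spots, the distance classes, the stretch of chromosome 2 and the limma fit were chosen after the values had been seen. Intervals over sections and limits for counts of 0 cover only the spread between sections and counting error. Ratios in tissues with 1 section are log2 of CPM with a pseudocount of 0.5. Some genes are not reported here by name.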

Additional observations from a re-analysis of the deposited data

Results flagged for a closer look

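A single section of the 4 lay apart from the others in 5 of 106 values tested, where chance gives 5.3 (1 in 20). Dlk1 in the largest patch was at 255.6 CPM in section D, where the others lay between 325.2 and 333.0 CPM. The log2 ratio of positive to 0-UMI spots in section D was -2.39 for Cyp2c37, -2.46 for Cyp4f14 and 1.19 for Foxa1, where the others lay between -1.69 and -1.59, between -1.43 and -1.30 and between 0.77 and 0.81. For Krt20 it was 2.51 in section C, where the others lay between 2.03 and 2.08.

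Some named genes had the opposite sign in another tissue from that in all 4 sections of NEJ146, which was not tested since those tissues have 1 section each. Klhl13 was the one gene with the opposite sign in all 3 tissues that held positive spots, with log2 ratios of -0.102 in NEJ634, -0.248 in NEJ723 and -0.333 in NEJ687, against 2.83 to 3.50 in NEJ146. In NEJ634 this depended on the spots used: over the spots that the deposited position files mark as over tissue, Klhl13 was at 0.17 there. In NEJ687, the ratio was -0.0474 for Col15a1, -0.213 for Epcam, -0.202 for Serpinb6b and 0.011 for Serpina3k. In NEJ723, it was 0.464 for Cyp2c50, 0.22 for Cyp2c54, 0.175 for Cyp2a5 and 0.469 for Cyp2c29, all from low levels: Cyp2c50 was at 0.302 CPM in positive and 0.0812 CPM in 0-UMI spots, Cyp2c54 at 0.0823 CPM and Cyp2c29 at 0.192 CPM in positive spots and both at 0 in 0-UMI spots, and Cyp2a5 at 2.36 against 2.03 CPM. Cyp2c50 was at -0.22 over the spots marked as tissue.

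Spots under 8000 UMIs, which the rule leaves out and of which those with 4000 or more entered only an alternative setting, also held Dlk1: 48 UMIs in the 538 such spots of section A, 85 in 507 of section B, 24 in 114 of section C and 43 in 821 of section D.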

How the results depend on the processing

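All 30 named genes kept their direction and call under every alternative run for them other than those that kept only, or left out, the largest patch (600 of 600 values). These genes were picked as the extremes of the same counts, so this was largely set by their choice. Of 92 genes followed in positive against 0-UMI spots, 1999 values under alternatives were computed, of which 1920 kept direction and call, 43 lost the call, 12 gained it and 24 changed sign; next to positive spots these were 897, 74, 42 and 4 of 1017, and in the patch against other positive spots 770, 9, 4 and 0 of 783. Counts in positive spots became 6860 higher and 1646 lower with library size alone, 1909 and 2259 with spots thinned to 8000 UMIs, and 1179 and 1489 without the largest patch, and leaving out 1 section gave 2511 to 3164 and 2782 to 3324. Without the section as a block, which the pairing of the sums calls for, they were 2637 and 2619, those next to positive spots 874 and 345, and those of the patch against other positive spots 1846 and 2024. Next to positive spots, the counts (1048 and 885) became 392 and 377 with DESeq2 and 674 and 523 with genes of at least 10 CPM, the lower count became 428 with library size alone, the higher count 536 with far spots set by positive spots only and 697 with far spots matched on total UMIs, both counts 639 and 466 next to the largest patch only, and leaving out 1 section gave 315 to 1065 and 256 to 951. In the patch against other positive spots they became 4202 and 1302 with library size alone and 1024 and 1350 with DESeq2, and leaving out 1 section gave 1408 to 2095 and 1717 to 2351. The mean share of positive spots, 8.30% (SD 5.36), became 20.7% with 1 or more UMIs, 5.45% with 3 or more, 4.42% with spots thinned to 8000 UMIs and 5.83% to 9.84% without 1 section. The following log2 fold changes turned their sign, and the cause was not tested. Without the largest patch, Sprr1a was at -0.35, Tubb2b -0.44, Serpinb6b -0.0096, Krt7 -0.195, Spp1 -0.063, Sox4 -0.015, Lin28b -1.45, Foxa1 -0.42, Cidec -0.66, Ttr 0.16, Hba-a1 0.40, Marco 0.34 and Glul 0.024. With the largest patch only, Camp was at -1.63, S100a9 -1.12, Ngp -1.79 and Ppbp -2.31. With 3 or more Dlk1 UMIs Camp was at -0.093 and Ngp at -0.028, with 0-UMI spots within 2 steps they were at -0.15 and -0.011, and with 0-UMI spots matched on total UMIs Ppbp was at -0.033. With library size alone Alb was at 0.0094 and Ttr at 0.060. Next to the largest patch only, Afp was at -0.0097, Ppbp -3.07 and Acta2 -0.31, and with far spots set by positive spots only Cyp2f2 was at -0.053. Depth limits genes such as Rtl1 and Lin28b, which had few UMIs in positive spots.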

Other observations

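The band 7 to 10 steps from the largest patch, where Cldn4, Cldn7 and Epcam had their second maximum, also had more Krt19, Cd74, Col1a1 and Alb than the spots 4 steps away, in each of the 4 sections. Krt19, the bile duct keratin, averaged 34.9 ± 2.89 CPM there (SD, n = 4 sections), 2.41 ± 0.979 CPM at 4 steps and 7.51 ± 2.78 CPM in the patch. Cd74, the invariant chain of antigen-presenting cells, averaged 196 ± 26.1 CPM against 56.3 ± 18.1 CPM at 4 steps, and Col1a1 86.8 ± 24.1 CPM against 44.8 ± 22.8 CPM. Alb averaged 15100 ± 3944 CPM there against 9712 ± 2863 CPM at 4 steps, and Igf2 was lower in each section, at 79.5 ± 15.1 CPM against 103 ± 27.7 CPM. The band left out positive spots, was picked after its values had been seen and was not tested.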
